A study of Mus musculus with 4 samples.

Results

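In all, 8 amino acid transporter genes linked to the ATF4 stress response were followed across the cell classes of the mouse retina. They are Slc7a1, Slc7a3, Slc7a5, Slc7a11, Slc3a2, Slc38a2, Slc1a4 and Slc1a5, 8 of the 32285 genes in the files, and they were listed by symbol after their levels in Müller glia had been seen in these same libraries. The samples were single-cell RNA libraries (10x Genomics) of dissociated retina at postnatal day 30, 1 retina and 1 library per mouse. WT mice carried the wildtype genotype, 1 female and 1 male. NLGF mice, 1 female and 1 male, carried the genotype that the labels write as nlgf, a name in common use for a knock-in of mutated and humanised sequence into App, the amyloid precursor protein gene. The labels give no treatment, litter, strain background or preparation batch.

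ATF4 is a transcription factor whose translation rises when the initiation factor eIF2 is phosphorylated, for instance by PERK during endoplasmic reticulum stress or by GCN2 when amino acids run short. Its targets include genes that import amino acids, make them or charge them onto tRNA. Müller glia are the radial glia of the retina; they take up glutamate released by neurons, make glutamine and keep glutathione. Of the 8 transporters, Slc3a2 (CD98 heavy chain) carries light chains such as Slc7a5 (LAT1) and Slc7a11 (xCT) to the membrane. Slc7a1 (CAT1) and Slc7a3 (CAT3) import arginine and lysine. Slc38a2 (SNAT2), Slc1a4 (ASCT1) and Slc1a5 (ASCT2) move small neutral amino acids with sodium.

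The files held between 8060 and 9068 barcodes per library and between 19128388 and 23473093 UMIs (unique molecular identifiers, each standing for 1 captured RNA molecule). After filtering, 31559 cells fell into 22 clusters and 10 marker-defined classes, of which 8 had enough cells in every library to be tested. Müller glia numbered 255 (female) and 380 (male) cells in WT and 406 (female) and 380 (male) cells in NLGF, with class sums of 1317944 to 2074542 UMIs. All 9 Müller markers were detected in each library, with a summed level of 22713 to 23873 CPM. CPM stands for UMIs of a gene per 1000000 UMIs of its class in 1 library. Where 2 values are given for a genotype, the female stands first. The class joined a cluster of 734 deeply sequenced cells (median 9325 UMIs), led by genes such as Slc1a3, Apoe and Aqp4, and a cluster of 687 shallow cells (median 807 UMIs), led by Ttr, Rgr and Ptgds. The shallow cells are the less certain part of the class, since Rlbp1 was the single Müller marker among their 10 leading genes. When doublets were kept, the class held 675 deep cells alone, and a shallow cluster of 952 cells, led by Gfap, Ttr and S100b, took the name of astrocytes. The libraries shared 132 barcodes, 0.377% of all barcodes.

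The genes lie on the GRCm38 assembly, the assembly also called mm10, in the GENCODE M21 annotation. Slc7a5 (ENSMUSG00000040010) spans chr8:121881150-121907694, overlapped by the gene model Gm20388 on the other strand, and Slc3a2 (ENSMUSG00000010095) spans chr19:8706882-8723369. Slc7a11 (ENSMUSG00000027737) spans chr3:49892526-50443614, and 5 predicted gene models overlap it, Gm37854, Gm37826, Gm37692, Gm2345 and Gm37498, of which 2 are on the same strand. Slc7a1 (ENSMUSG00000041313) spans chr5:148327410-148399904 and Slc7a3 (ENSMUSG00000031297) spans chrX:101079210-101086020. Slc38a2 (ENSMUSG00000022462) spans chr15:96687392-96699730, Slc1a4 (ENSMUSG00000020142) spans chr11:20302180-20332713 and Slc1a5 (ENSMUSG00000001918) spans chr7:16781340-16798274. Slc1a5 is on the plus strand and the others are on the minus strand.

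RefSeq promoter windows (GRCm38.p6, 250 bases before and 50 after an annotated start) were at hand for 5 of the 8 genes, Slc7a1, Slc7a11, Slc3a2, Slc38a2 and Slc1a4. They were searched on both strands for TGATGNAA, the core of the C/EBP-ATF response element that ATF4 dimers bind, and for TGACNNNGC, the core of the antioxidant response element that NRF2 binds. Of 32851 windows genome-wide, 3.97% held the first motif and 12.4% the second. The sequences are shown 5′ to 3′ on the gene's strand, with the motif matches in capitals, because 4 of these 5 genes hold a match and differ in which motif it is. The Slc7a11 stretch (chr3:50443614-50443863) is the 250 bases before the start.
Slc7a11: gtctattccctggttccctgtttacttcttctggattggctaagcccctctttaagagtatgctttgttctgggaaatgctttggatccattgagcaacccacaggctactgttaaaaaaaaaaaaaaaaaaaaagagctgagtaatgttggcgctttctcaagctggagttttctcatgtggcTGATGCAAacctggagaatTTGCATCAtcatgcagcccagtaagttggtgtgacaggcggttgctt
Slc7a11 held 2 matches to TGATGNAA, at −66 to −59 on its own strand and at −47 to −40 on the other strand, counting the start as 0. The Slc1a4 stretch (chr11:20332704-20332763) runs from 50 bases before the start to the first 10 transcribed bases, because its single match to TGATGNAA, on the other strand, spans the start from −4 to 3.
Slc1a4: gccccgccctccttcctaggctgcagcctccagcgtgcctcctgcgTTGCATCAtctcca
The Slc38a2 stretch (chr15:96699729-96699978) held 1 match to TGACNNNGC at −27 to −19 and no match to TGATGNAA.
Slc38a2: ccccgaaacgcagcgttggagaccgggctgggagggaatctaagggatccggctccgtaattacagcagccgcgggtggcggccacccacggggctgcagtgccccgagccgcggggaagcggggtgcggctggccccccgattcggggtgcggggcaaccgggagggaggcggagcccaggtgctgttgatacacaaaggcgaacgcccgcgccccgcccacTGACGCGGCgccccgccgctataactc
The Slc7a1 stretch (chr5:148399905-148400154) held 1 match to TGACNNNGC at −11 to −3, on the other strand, and no match to TGATGNAA.
Slc7a1: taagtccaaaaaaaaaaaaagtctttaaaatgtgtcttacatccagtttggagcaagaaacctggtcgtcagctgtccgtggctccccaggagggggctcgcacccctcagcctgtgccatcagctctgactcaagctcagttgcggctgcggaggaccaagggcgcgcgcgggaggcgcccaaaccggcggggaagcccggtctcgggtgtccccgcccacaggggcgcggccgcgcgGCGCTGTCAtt
The second Slc7a1 window (chr5:148392816-148393065 before its start) and the Slc3a2 window (chr19:8713898-8714147 before its start) held neither motif. Both lie inside the gene spans given above, at internal starts. The stretch before the outermost Slc3a2 start was not searched. A match describes letters in a window and is not evidence of binding, and no match says only that these letters are not in that window.

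The class in which each transporter was highest was taken first from the WT libraries. The genes had been chosen for their difference between genotypes in Müller glia, and the WT Müller level is a side of that difference. These WT levels, and the contrast of classes drawn from them, are therefore not wholly apart from the choice. Slc7a5, Slc3a2 and Slc7a1 were highest in endothelial cells, which form the blood vessels of the retina. By mean level Slc7a11 and Slc1a4 were highest in Müller glia, and Slc1a5 was near absent from them. Slc38a2 was detected in every class, with means of 70.2 to 166 CPM. These levels are described by class with the 2 WT libraries given as mean ± SD (n = 2), and neighbours in the order were compared only by whether their libraries overlapped.

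Among the heteromeric transporters, Slc7a5 had 729 ± 19.8 CPM in WT endothelial cells, with 743 in the female and 715 in the male. Horizontal cells, with at most 24 cells per library, followed at 40.5 ± 18.7 CPM, and Müller glia had 16.8 ± 1.27 CPM. Both Müller libraries, at 15.9 and 17.7 CPM, lay above both cone bipolar libraries, at 9.31 and 8.60 CPM. The remaining tested neuronal classes had mean Slc7a5 levels of 4.62 to 5.77 CPM, and their libraries overlapped.

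Slc3a2, the partner chain, had 508 ± 77.9 CPM in WT endothelial cells and 221 ± 38.3 CPM in Müller glia. Microglia, at 199 ± 2.86 CPM, overlapped with Müller glia in Slc3a2. Rods had 109 ± 8.66 CPM of Slc3a2, and rod bipolar cells, the lowest class, had 38.4 ± 2.45 CPM. The order of Slc3a2 thus had endothelial cells first, glia and microglia next, and neurons below them, with no overlap between these 3 levels.

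Slc7a11, which exchanges glutamate for the cystine used in glutathione, had 17.4 ± 6.51 CPM in WT Müller glia, 22.0 in the female and 12.8 in the male. No other tested class passed a mean of 3.18 CPM (rod bipolar cells), and retinal ganglion cells, not tested, had 3.81 CPM from 1 UMI. Endothelial cells and microglia had 0 UMIs of Slc7a11 in both WT libraries. In WT, Müller glia held 47.4% of the 116 Slc7a11 UMIs of all classes and 8.46% of all UMIs.

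Of the cationic amino acid transporters, Slc7a1 had 555 ± 87.5 CPM in WT endothelial cells, 616 in the female and 493 in the male. The next class, amacrine cells, had 9.42 ± 1.52 CPM. In WT Müller glia Slc7a1 stood at 2.62 ± 0.479 CPM (3 UMIs in the female and 6 in the male), below the 4.29 ± 0.901 CPM of rods. WT endothelial cells held 64.5% of the Slc7a1 UMIs and 57.8% of the Slc7a5 UMIs of all classes. Slc7a3 was low in every class, with WT means from 0 to 2.77 CPM, and its libraries overlapped between Müller glia and cone bipolar cells.

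Among the sodium-coupled transporters, Slc38a2 had 166 ± 15.9 CPM in WT endothelial cells and 155 ± 6.23 CPM in Müller glia, which overlapped. Rod bipolar cells had 146 ± 3.03 CPM, cone bipolar cells 131 ± 4.17 CPM and cones, the lowest class, 70.2 ± 11.1 CPM. Slc1a4, which carries serine, alanine and threonine, had 20.5 ± 3.21 CPM in WT Müller glia. Of the classes too small to test, retinal ganglion cells (2 and 5 cells) had 16.2 ± 12.1 CPM from 7 UMIs and overlapped with Müller glia. Horizontal cells had 6.28 ± 4.34 CPM from 6 UMIs. The next tested class for Slc1a4, endothelial cells, had 5.31 ± 2.74 CPM from 3 UMIs, and rod bipolar cells had 0 UMIs. Müller glia held 54.0% of the 124 Slc1a4 UMIs in WT, beside 8.46% of all UMIs. In NLGF they held 83.0% of 230, beside 11.1% of all UMIs. The NLGF share is a side of the contrast that the genes were chosen from, so nothing is read from its rise.

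Slc1a5, the close relative of Slc1a4 that carries glutamine, had another pattern. In WT it had 14.1 ± 5.66 CPM in endothelial cells, 7.48 ± 2.37 CPM in cones and 6.16 ± 0.610 CPM in cone bipolar cells. In WT Müller glia 1 UMI of Slc1a5 was counted in the female and 0 in the male, a mean of 0.379 CPM. That was 0.641% of the 156 Slc1a5 UMIs in WT.

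**Figure D1:**
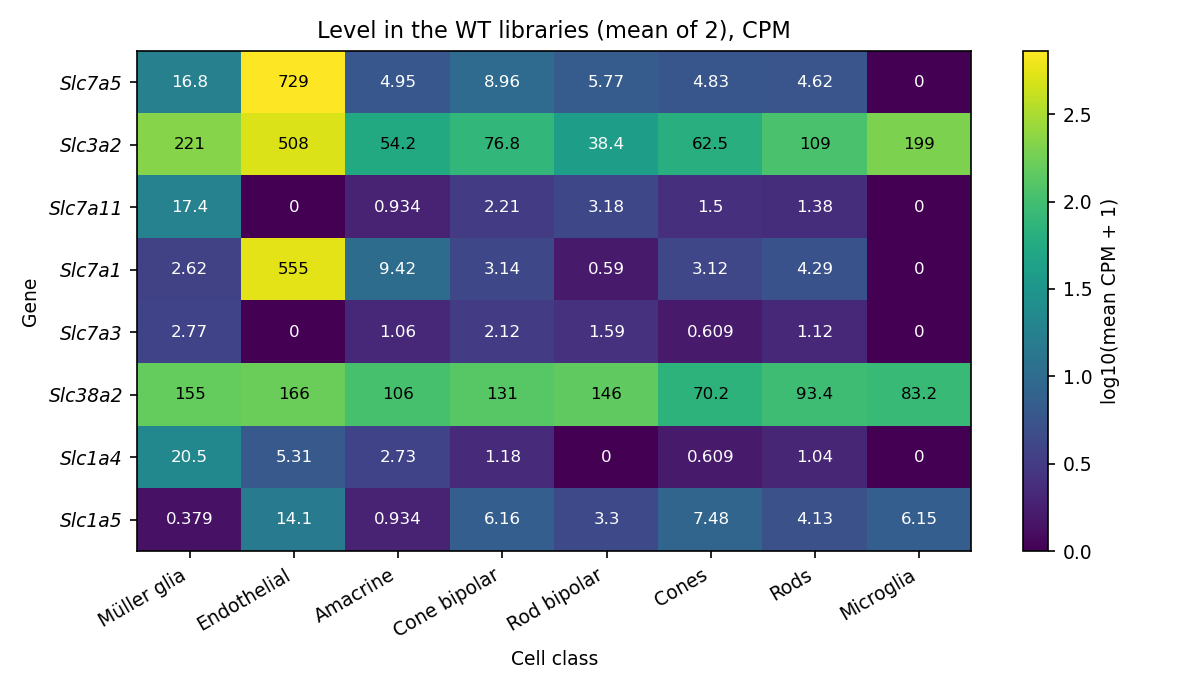
Mean level of the 8 transporters (rows) in 8 cell classes (columns) of the 2 WT libraries, in CPM, with the number printed in each field and the colour on a log10 scale. Slc7a5, Slc3a2 and Slc7a1 peak in endothelial cells at 729, 508 and 555, whereas Slc7a11 and Slc1a4 peak in Müller glia at 17.4 and 20.5.

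WT Müller glia were also contrasted with the unweighted mean of the fitted log-scale values of the other 7 tested classes. The test was edgeR's quasi-likelihood test across all genes. By this mean of logs 5 of the 7 transporters tested were higher in Müller glia and 1, Slc1a5, was lower. Of all tested genes 29.4% were higher and 12.2% lower at an adjusted p below 0.05. Higher here does not mean above the average CPM of the other classes. Slc7a5, called higher, had 16.8 CPM in Müller glia and 729 CPM in endothelial cells. Slc3a2 was 1.22 ± 0.10 higher on the log2 scale (SE, n = 2 libraries per class, edgeR adjusted p = 8.65e-25). Slc38a2 was 0.60 ± 0.11 higher on the log2 scale (edgeR adjusted p = 1.76e-06). Both tests had 219 degrees of freedom, far more than 2 WT mice can give, so the size of these p-values does not measure spread between animals. Slc7a5, Slc7a11 and Slc1a4 also passed, and Slc7a1 did not. No fold is given for these 4, because some classes held 0 UMIs of them and their fitted values depend on the prior count, nor for Slc1a5, which had 1 UMI in WT Müller glia. In the NLGF libraries the same contrast called Slc7a1 higher in Müller glia and no longer called Slc1a5. The genes were chosen by their NLGF levels in Müller glia, so nothing is read from that call. By mean level NLGF endothelial cells still had more Slc7a1, 736 CPM against 23.6 CPM in Müller glia.

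In Müller glia the NLGF libraries held more RNA of several of these transporters than the WT libraries. Slc7a1, Slc38a2, Slc1a4 and Slc7a5 lay well above WT in both NLGF animals, Slc3a2 lay slightly above, and Slc7a11 overlapped. Slc7a3 and Slc1a5 had too few UMIs to be fitted. Because the genes were picked from this same contrast, the values below describe the choice and carry no test.

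Slc7a1 had 2.28 and 2.95 CPM in WT and 26.0 and 21.2 CPM in NLGF. Both NLGF libraries lay far above both WT libraries, and the fitted difference was 3.06 ± 0.38 on the log2 scale (SE, n = 2 per genotype), an 8.36-fold difference. These levels rest on 3 and 6 UMIs in WT and on 54 and 44 UMIs in NLGF. At most 3 of the UMIs were in 1 cell, and 44 and 38 NLGF cells carried any, against 3 and 5 WT cells.

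Slc38a2, the transporter that cells raise in amino acid shortage, had 150.2 and 159 CPM in WT and 286 and 347 CPM in NLGF. The groups did not overlap, and the fitted difference was 0.99 ± 0.11 on the log2 scale, 1.98-fold. Slc1a4 had 22.8 and 18.2 CPM in WT and 50.1 and 42.0 CPM in NLGF. That was a difference of 1.15 ± 0.21 on the log2 scale, 2.22-fold, with no overlap.

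Slc7a5, the light chain for leucine and other large neutral amino acids, had 15.9 and 17.7 CPM in WT and 40.5 and 54.5 CPM in NLGF. Its groups did not overlap, and it differed by 1.44 ± 0.22 on the log2 scale, 2.71-fold. The heavy chain Slc3a2 had 248 and 194 CPM in WT and 290 and 286 CPM in NLGF. Slc3a2 differed by 0.35 ± 0.11 on the log2 scale, 1.27-fold, and the WT female lay closer to the NLGF libraries than to the WT male.

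Slc7a11, the second light chain, had 22.0 and 12.8 CPM in WT and 20.2 and 19.3 CPM in NLGF. The NLGF libraries lay between the WT libraries, and the fitted difference was 0.20 ± 0.28 on the log2 scale (95% interval −0.40 to 0.80). Without the WT male its sign turned, to −0.19. Slc7a3 was counted with 6 and 2 UMIs in WT and 4 and 2 in NLGF, and Slc1a5 with 1 and 0 in WT and 2 and 2 in NLGF. No difference in either was detectable at this depth.

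**Figure D2:**
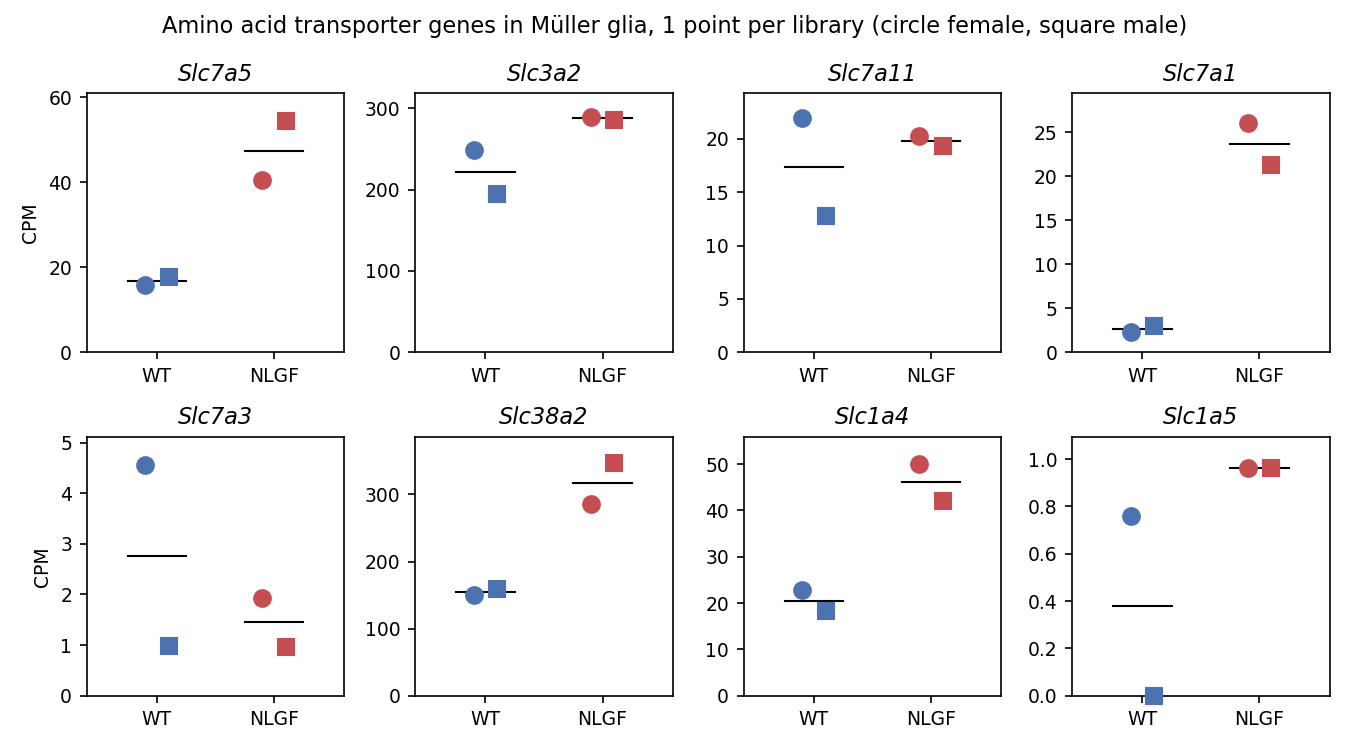
Level of each of the 8 transporters in Müller glia, in CPM, with 1 point per library (circles female, squares male, WT blue, NLGF red), a bar for the mean of 2 libraries and an axis from 0 in each panel. Slc7a1, Slc38a2, Slc1a4 and Slc7a5 show separated groups, while Slc7a11 overlaps, with 12.8 and 22.0 in WT.

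Of the 6 transporters fitted in Müller glia, 4 passed an adjusted p of 0.05 as higher in NLGF and 0 as lower, where 0.538% of the 11147 genes fitted were higher and 0.377% lower. Both NLGF libraries lay above both WT libraries for 5 of the 6, as they did for 20.6% of all fitted genes. The rule that chose the genes used this contrast, so these counts say nothing further about them. The 4 that passed were Slc7a1, Slc38a2, Slc7a5 and Slc1a4, with Slc1a4, at 1.15 on the log2 scale, nearest the threshold. Slc3a2, at 0.35, did not pass. With DESeq2 3 passed, Slc1a4 being lost, and without the filter on low counts 1 did. The summed level of all 8 was 467 and 406 CPM in WT and 715 and 772 CPM in NLGF. Without either WT library no gene of the whole table passed in Müller glia, and so none of the 4 did, while their log2 differences ranged from 0.94 for Slc38a2 to 3.30 for Slc7a1. Leaving out a WT library left 2.44 or 2.41 residual and prior degrees of freedom in place of 16.0, and leaving out an NLGF library gave 30.7 or 35.3, with 3 and 4 of the transporters passing. Whether the degrees of freedom account for the lost calls was not tested.

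The values in the 2 Müller clusters were not alike. In the deep cluster alone the same test again passed 4 of the transporters, with Slc7a1 at 2.53 and 3.30 CPM in WT and 28.5 and 23.8 CPM in NLGF. The shallow cluster held only 10.0% to 10.8% of the Müller UMIs of each library and 1 UMI of Slc7a1 over all 4. Slc3a2 and Slc38a2 alone could be fitted in the shallow cluster, and neither passed.

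Markers of other cells were counted in the Müller sums. The 5 astrocyte markers summed to 683 and 72.9 CPM in WT and 41.9 and 147 CPM in NLGF, highest in the WT female. Without the Müller cells that carried UMIs of 2 or more astrocyte markers, 6 to 11 cells per library, 4 transporters passed again and Slc7a1 differed by 3.52 on the log2 scale. The 11 endothelial markers, which matter for Slc7a1, Slc7a5 and Slc3a2, summed to 1941 and 1898 CPM in WT and 2187 and 1972 CPM in NLGF, with 6 to 8 of the 11 detected in each library. Both NLGF sums of endothelial markers thus lay above both WT sums. Of the defining endothelial genes, Emcn was at 0 UMIs in all 4 Müller sums and Cldn5 in both NLGF sums. Cdh5 and Tek were at 0 UMIs in both WT sums, while Cdh5 was detected in the NLGF male and Tek in the NLGF female. The part of endothelial RNA in the transporter differences was not tested. Microglial markers summed to 19.7 and 19.2 CPM in WT and 26.5 and 32.8 CPM in NLGF, again higher in both NLGF libraries, with Cx3cr1, Tmem119 and Fcrls at 0 UMIs in all 4 libraries.

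Single Müller cells were compared after each was thinned to 500 UMIs, since the libraries differed in depth per cell (median 3647 and 1758 UMIs in WT, 2370 and 3895 UMIs in NLGF). A UMI of at least 1 of the 8 transporters was then found in 18.4% (exact 95% binomial interval 13.9 to 23.7) of WT female cells and 15.0% (11.6 to 19.0) of WT male cells. In NLGF the shares were 25.4% (21.2 to 29.9) in the female and 20.8% (16.8 to 25.2) in the male. These intervals cover counting error only, and they overlap in each pairing of a WT with an NLGF library except the WT male with the NLGF female. Rods, thinned alike from medians of 806 to 951 UMIs, had 11.9% and 10.3% in WT and 11.5% and 11.7% in NLGF, which gives the level in another class. Without thinning, the Müller shares were 62.0% and 49.5% in WT and 58.1% and 60.0% in NLGF.

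Different transporters were also found together in single cells. Among Müller cells of at least 2000 UMIs, thinned to 2000, UMIs of 2 or more of the 8 genes were found in 19.5% of 159 WT female cells and 10.8% of 185 WT male cells. The NLGF female had 31.9% of 216 cells and the NLGF male 35.2% of 213 cells. Cells with 3 or more made up 1.26% and 0.541% in WT and 9.72% and 7.04% in NLGF. The UMIs of NLGF were spread over many cells, and these shares, which follow from the chosen levels, are given without a test.

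**Figure D3:**
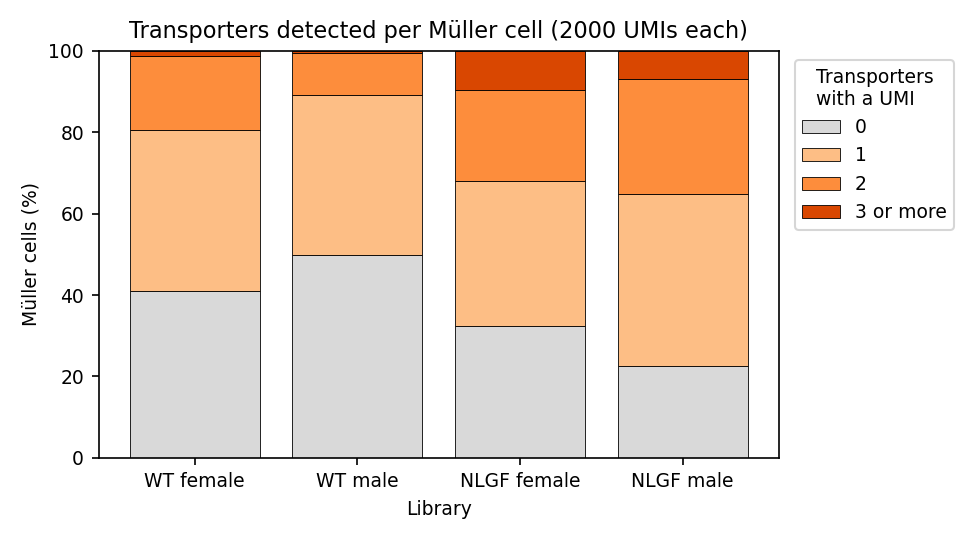
Share of Müller cells of at least 2000 UMIs, thinned to 2000 UMIs each, by the number of the 8 transporters with a UMI (colour), 1 bar per library. Cells with 2 or more reach 31.9% and 35.2% in NLGF and 19.5% and 10.8% in WT.

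Outside Müller glia no transporter differed between genotypes past the threshold. Across the other 7 classes 24 tests of 6 of the genes could be made, and 0 passed with edgeR at an adjusted p of 0.05, nor with DESeq2. The share of all genes that passed in either direction was also small, at 0.0621% in amacrine, 0.0959% in cone bipolar, 0.0958% in endothelial, 0.0108% in rod bipolar and 0.00806% in rods, and 0 in cones and microglia. Unadjusted edgeR p-values under 0.05 were found in 4 of the 24 tests, and the smallest adjusted p was 0.617. Of all genes, 492 of 11279 in amacrine, 735 of 11466 in cone bipolar and 577 of 9298 in rod bipolar cells had such p-values. The counts were 533 of 9394 in cones, 264 of 5219 in endothelial cells, 82 of 879 in microglia and 1023 of 12413 in rods. The log2 differences ranged from −0.58 (Slc3a2 in microglia) to 0.51 (Slc1a5 in cone bipolar cells).

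Slc38a2, higher in NLGF Müller glia, was lower in NLGF by its fitted value in all 6 of the other classes where it could be tested. Amacrine cells had 106 and 106 CPM of Slc38a2 in WT and 88.8 and 78.9 CPM in NLGF, a difference of −0.37 ± 0.13 on the log2 scale (SE, n = 2, edgeR unadjusted p = 0.0118, adjusted p = 1.00). Cone bipolar cells had 134 and 128 CPM in WT and 108 and 114 CPM in NLGF, −0.26 ± 0.10 on the log2 scale (edgeR unadjusted p = 0.0129, adjusted p = 0.617). Rod bipolar cells had 144 and 148 CPM in WT and 123 and 126 CPM in NLGF, −0.24 ± 0.10 on the log2 scale (edgeR unadjusted p = 0.0313, adjusted p = 0.746). In these 3 classes both NLGF libraries lay below both WT libraries, and none of the differences held after adjustment. The share of all genes that separate this way was not counted in these classes. In Müller glia 20.6% of all fitted genes had both NLGF libraries above both WT libraries. All 6 classes come from the same mice, so their common direction is not 6 independent results, and nothing is read from it.

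In endothelial cells, where Slc7a1, Slc7a5 and Slc3a2 peak, 13 to 29 cells per library were summed. Slc7a1 had 616 and 493 CPM in WT and 804 and 668 CPM in NLGF, 0.39 ± 0.20 on the log2 scale (95% interval −0.04 to 0.81, edgeR adjusted p = 0.978). Slc3a2 had 453 and 563 CPM in WT and 753 and 625 CPM in NLGF, 0.41 ± 0.21 on the log2 scale (95% interval −0.02 to 0.85, edgeR adjusted p = 0.978). Slc7a5 had 743 and 715 CPM in WT and 733 and 835 CPM in NLGF and overlapped, at 0.10 ± 0.19 on the log2 scale. Rod bipolar cells had 36.7 and 40.1 CPM of Slc3a2 in WT and 55.4 and 53.7 CPM in NLGF, 0.49 ± 0.18 on the log2 scale (edgeR unadjusted p = 0.0128, adjusted p = 0.684).

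Rods were the most numerous class, with 5810 to 6591 cells per library. Slc3a2 had 115 and 103 CPM in WT and 114 and 114 CPM in NLGF, a difference of −0.01 ± 0.08 on the log2 scale (95% interval −0.19 to 0.18). Slc38a2 had 105 and 81.7 CPM in WT and 85.9 and 96.1 CPM in NLGF, −0.11 ± 0.11 on the log2 scale (95% interval −0.34 to 0.13). Slc7a1, at 3.65 and 4.92 CPM in WT and 4.88 and 5.52 CPM in NLGF, differed by 0.19 ± 0.27 on the log2 scale (95% interval −0.40 to 0.78). Slc7a5, Slc7a11 and Slc1a5 differed in rods by 0.12 ± 0.28, −0.35 ± 0.44 and 0.35 ± 0.24 on the log2 scale. All 6 intervals in rods included 0.

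**Figure D4:**
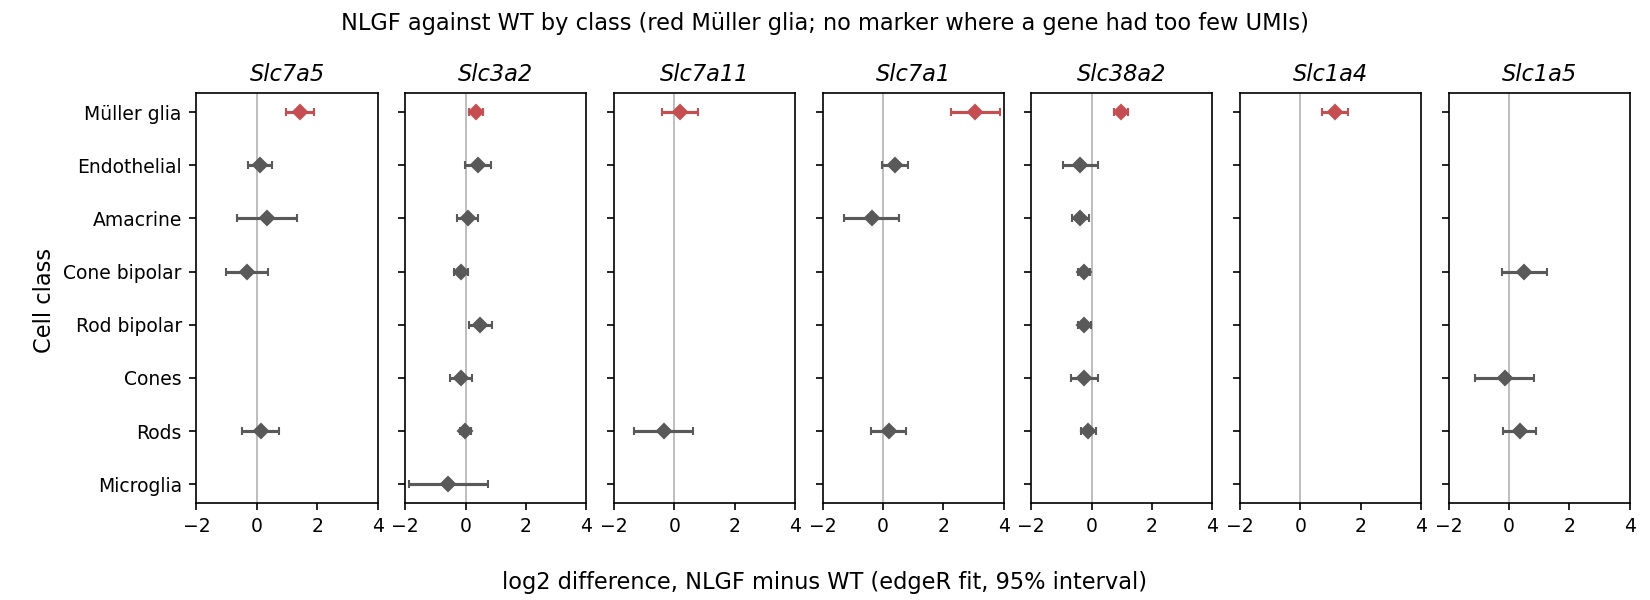
Difference between NLGF and WT in log2 units (edgeR fit, 95% interval as bars) for each transporter (panels) in each class (rows), with Müller glia in red and no marker where a gene had too few UMIs. The Müller values of Slc7a1, Slc7a5, Slc38a2 and Slc1a4 lie at 3.06, 1.44, 0.99 and 1.15, and the 24 values of other classes lie between −0.58 and 0.51.

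The NLGF difference in Müller glia was set against that in rods of the same libraries by an interaction term, each library being a block. For Slc38a2 the Müller difference exceeded the rod difference by 1.07 ± 0.13 on the log2 scale, and for Slc7a1 by 2.92 ± 0.55 (SE, n = 4 libraries). Of 7 transporters fitted, these 2 passed the threshold as larger in Müller glia, where 0.213% of all genes did so. Slc7a5 (1.29 ± 0.36), Slc1a4 (2.55 ± 0.70) and Slc3a2 (0.36 ± 0.12) pointed the same way without passing. The Müller side of this contrast is the one that the genes were chosen from, and Slc7a1 passed the filter on low counts in Müller glia through its NLGF libraries, so nothing is read from this count. Slc7a1 no longer passed with DESeq2, or when the WT male was left out.

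Other genes of amino acid handling were taken as lists for the same Müller contrast. Of 49 further amino acid transporters, 19 could be tested and 0 passed with edgeR or DESeq2 (median difference 0.04 on the log2 scale, against 0.003 over all fitted genes). Among those with an unadjusted p under 0.05 was Slc6a6, the taurine transporter, at −0.32 ± 0.11 on the log2 scale. Slc7a2, another cationic transporter, differed by 0.04 ± 0.11, and Slc38a1 and Slc38a3, relatives of Slc38a2, by 0.07 ± 0.10 and −0.06 ± 0.09. These 3 were singled out after their values were seen. In other classes Slc6a6 in endothelial cells had the smallest unadjusted p of the list, at 0.60 ± 0.17 on the log2 scale (edgeR unadjusted p = 0.00251, adjusted p = 0.681).

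The ATF4 list of 28 regulators and targets held no transporter of the 8. Of its 23 tested genes 12 passed as higher and 0 as lower in NLGF Müller glia, where 0.538% and 0.377% of all fitted genes did. By fitted value 19 lay above 0 and 4 below, with a median log2 difference of 1.39. Atf4 itself rose by 1.39 ± 0.11 on the log2 scale, and the transcription factors Atf5, Ddit3 (CHOP) and Cebpg, the partner with which ATF4 pairs, rose by 2.09 ± 0.11, 1.79 ± 0.12 and 1.44 ± 0.12. The stress protein gene Nupr1 rose by 1.58 ± 0.11, and Herpud1, which serves degradation of endoplasmic reticulum proteins, by 1.13 ± 0.09. This list was drawn up with earlier results of these libraries known, so its direction is not independent evidence.

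Of 20 cytosolic aminoacyl-tRNA synthetases, which charge tRNA with the imported amino acids, 7 passed as higher and 0 as lower. The shares of all fitted genes were again 0.538% and 0.377%. By fitted value 14 of the synthetases lay above 0 and 6 below. Cars, Iars, Yars, Aars, Lars, Tars and Nars rose by 2.01 ± 0.28, 1.48 ± 0.20, 1.24 ± 0.26, 1.06 ± 0.17, 0.81 ± 0.15, 0.65 ± 0.14 and 0.49 ± 0.10 on the log2 scale. Iars had 21.6 and 16.7 TMM-scaled CPM in WT and 55.1 and 49.7 in NLGF, and Cars had 12.4 and 7.59 in WT and 43.6 and 33.5 in NLGF, with no overlap in either. The median of the list was 0.29. The count of 7 moved with the settings: DESeq2 passed 3, thinning to the smallest library 4, and fitting all genes without the filter on low counts 0.

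Genes that sense amino acids and those of glutathione metabolism did not pass. Of 27 tested genes of amino acid sensing (GCN2, mTORC1 and its Rag and GATOR regulators), 0 passed and 0 had an unadjusted p under 0.05 with edgeR, and 0 passed with DESeq2. The nearest was Nprl3, a GATOR1 subunit, at 0.79 ± 0.43, while Mtor stood at −0.34 ± 0.24 and Eif2ak3, which encodes PERK, at −0.43 ± 0.29 on the log2 scale. Of 15 tested glutathione and NRF2 genes, 0 passed with edgeR or DESeq2 and 0 had an unadjusted p under 0.05. Gclc, the rate-limiting enzyme of glutathione synthesis, differed by 0.27 ± 0.17 and Txnrd1, a thioredoxin reductase, by 0.15 ± 0.15, beside the 0.20 ± 0.28 of Slc7a11.

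**Figure D5:**
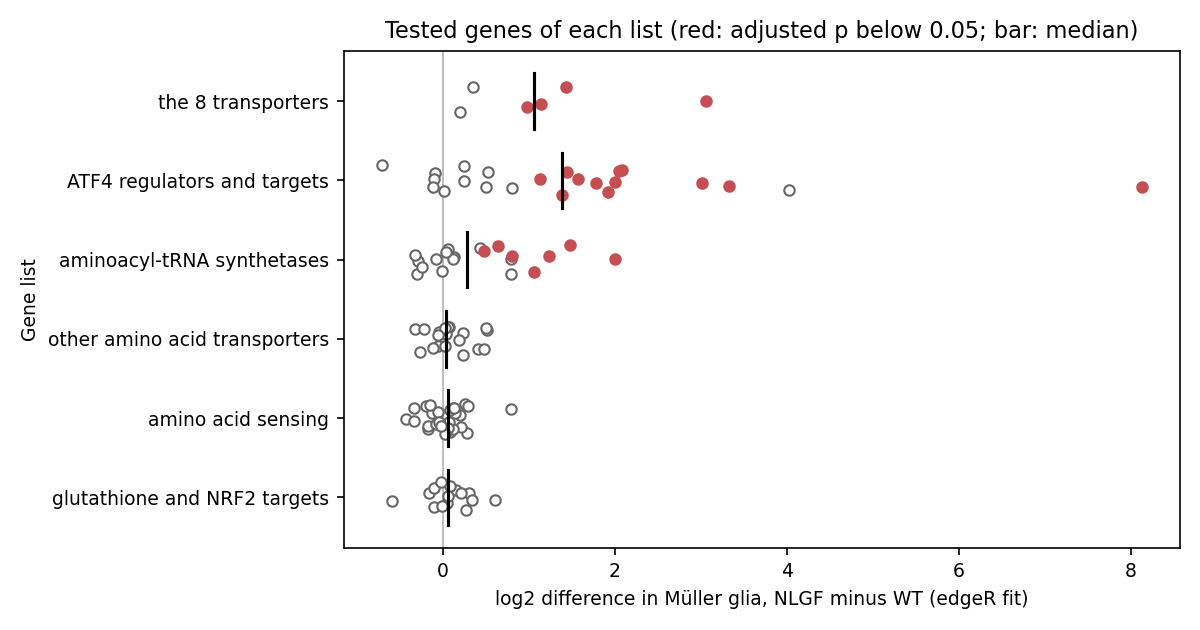
Difference between NLGF and WT in Müller glia in log2 units for the tested genes of each list (points, spread vertically for legibility; red where the edgeR adjusted p was below 0.05) with the list median as a bar. The medians are 1.07 for the 8 transporters (6 fitted), 1.39 for the ATF4 list and 0.04 for other amino acid transporters; the point at 8.12 is Chac1, at 0 UMIs in both WT libraries, whose fitted value depends on the prior count.

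The genes whose levels most resembled each transporter were found over the 32 sums of 8 classes and 4 libraries, among 11474 genes, by Pearson's r of log2(CPM + 1). The sums share libraries and classes, so r describes class patterns and carries no p. Slc7a1 was most like Vwa1, Tgfb1i1 and Lsr (r = 0.94, 0.93 and 0.93) and among the genes most like Slc7a5 were Dock6 and Bsg (0.95 and 0.95). Slc3a2 was most like Acadl, Pttg1ip and Clec2d (0.94, 0.94 and 0.93). All 8 of these genes were highest in endothelial cells. Slc1a4 was most like Tcf7l1, Plscr1 and Mob3b (0.93, 0.93 and 0.92) and Slc7a11 most like Tmem56, Kazald1 and Sbspon (0.88, 0.85 and 0.85), all 6 highest in Müller glia. Slc38a2 (Myo6, Gsta4 and Nt5dc2, 0.81, 0.80 and 0.79), Slc7a3 (Ttyh1, Cxadr and Immp2l, 0.77, 0.77 and 0.77) and Slc1a5 (Rfx1, Prickle1 and Acer2, 0.70, 0.70 and 0.68) had looser matches.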

How the data were processed

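Matrices of raw UMI counts per gene and barcode were deposited by the authors, 1 per library, with 32285 genes. They were written by Cell Ranger 6.1.1 per the file headers, whereas Cell Ranger 3.1.0, STAR and mm10 stand in the submitters' processing notes. No source used here says if intronic reads counted. Gene IDs were matched to GENCODE M21 (32235 of 32285).

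Kept were 33329 of 35191 barcodes, those with 300 or more genes and no more than 20% mitochondrial UMIs. Scrublet's own threshold called 2 doublets, so the top 6% of scores per library, 1770 cells, were removed. Cells were scaled to 10000 UMIs and clustered with scanpy 1.11.5 (2000 variable genes, 30 components, 20 neighbours, Leiden resolution 1). Clusters took the class of the highest mean marker z-score, unless another class had more markers among their top 10 genes and so gave the name. A name could thus rest on a low z-score, as in a cone bipolar cluster at 0.128. Classes with too few detected markers were not considered. A cluster was unnamed if the z-score of its class was not positive. It was also unnamed if no marker was among its top 10 genes and either the z-score was under 0.8 or the median UMI count was low. In all, 2 clusters stayed unnamed. Class names are marker-based and read as Müller-like and so on, and differences from the study may come from these rebuilt names.

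Counts were summed per library and class (at least 10 cells in each library) and tested with edgeR 4.0.16 (TMM, filterByExpr, quasi-likelihood, Benjamini-Hochberg over all fitted genes, threshold 0.05), genotype as the only term. SE is the absolute log2 difference over the root of F. Levels are CPM without TMM unless said otherwise. Alternatives were RLE factors, DESeq2 1.42.0, no filter, sex as a replicate block, each library left out, thinned sums, doublets kept, clustering without the listed genes, and subsets of Müller cells; the Müller clusters taken singly and the cells thinned to 2000 UMIs were added after seeing the data. The test was also run on counts simulated from the mean levels of these libraries and the dispersions that the same fit gave. That run checks the code and cannot show that the model holds for these libraries. Each library is 1 mouse, so p-values rest on n = 2 per genotype.

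Named besides the 8 transporters were list genes of the smallest p in Müller glia (up to 6 per list), up to 8 other transporters of the smallest p in any class, and the 3 genes of highest r per transporter; genes that this rule names but the text leaves out are not reported here. The transporters and lists were chosen with earlier results of these data known.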

Additional observations from a re-analysis of the deposited data

Results flagged for a closer look

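The NLGF difference was larger in Müller glia than in rods for 2 transporters in the interaction term of edgeR's quasi-likelihood fit blocked by library. The genes were chosen from the Müller side of this contrast, so the values are a description and carry no test. For Slc38a2 the difference between classes was 1.07 on the log2 scale (95% interval 0.82 to 1.33), with Müller glia at 0.99 and rods at −0.11. Over 13 alternatives it ranged from 0.91 to 1.29. For Slc7a1 it was 2.92 (95% interval 1.83 to 4.01), with Müller glia at 3.06 and rods at 0.19. In Müller glia Slc7a1 passed the filter on low counts through its NLGF libraries, with 54 and 44 UMIs against 3 and 6 in WT.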

How the results depend on the processing

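In Müller glia 4 of the 8 transporters passed, 3 with DESeq2, 1 without the filter on low counts, 0 in the shallow Müller cluster alone, and 0 to 4 when 1 library was left out. Of the ATF4 list 12 genes passed, with 1 in the shallow cluster and 0 to 12 with 1 library left out. Of the aminoacyl-tRNA synthetases 7 passed, with 3 by DESeq2, 0 without the filter, 4 after thinning, 0 in the shallow cluster and 0 to 5 with 1 library left out. Of the interaction with rods 2 genes passed, and 1 with DESeq2. The shallow cluster held fewer UMIs than the deep one. The cause of the shifts, in the shallow cluster or elsewhere, was not tested. Signs turned in 6 values: Slc7a11 in Müller glia with 1 library left out (−0.19 to 0.57, below 0 without the WT male), Slc7a1 in Müller glia against other classes in the NLGF libraries (2.53), and, in the shallow cluster, Lamtor5 (0.13), Gclc (−0.71), Gsta4 (0.036) and Txnrd1 (−0.076). The mean share of thinned Müller cells with a transporter UMI was 16.7% in WT and 23.1% in NLGF, and became 55.7% and 59.1% without thinning, 30.5% and 45.7% at 1000 UMIs, and 23.9% and 34.1% with doublets kept, where a shallow cluster was named astrocytes and the class held deep cells alone. The labels give sex to both genotypes but no shared litter or day, and female-minus-male differences did not run together (r = −0.02 over 9274 genes). With sex as a replicate block, 5 transporters passed in Müller glia, Slc3a2 among them, 0 in other classes and 2 in the interaction. That setting also passed more genes of the whole table in Müller glia, 306 of 11147 against 102 in the main fit. Its median degrees of freedom were 471 against 16.0, so nothing is read from the added transporter. Slc7a3 and Slc1a5, with at most 6 UMIs per library in Müller glia, could not be fitted.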
